A study of Homo sapiens with 36 samples.

Results

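Deoxynucleotide supply was followed through 9 genes of the 29872 in the deposited table, chosen by name for their part in making, salvaging or degrading the building blocks of DNA: RRM1, RRM2, TYMS, DUT, DCTD, DTYMK, TK1, DCK and SAMHD1. Each was found by matching the Ensembl identifier of its row to its symbol in GENCODE v44, and all 9 were present. The cells were LNCaP, an established, androgen-responsive human prostate cancer line, so every value describes 1 line in culture. They received vehicle, AU2-94 at 1 or 2 µM, atirmociclib at 1 or 2 µM, or ribociclib at 2 µM. AU2-94 and atirmociclib are described as selective inhibitors of CDK4, and ribociclib inhibits CDK4 and CDK6. Treatment lasted 24 h or 72 h, and 3 biological replicates of each combination gave 36 libraries in 12 groups. The labels also list a dose of 2 µM for the vehicle samples. Wells meant for 72 h were seeded less densely than those for 24 h, so treatment time and seeding density cannot be told apart.

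DNA replication consumes dATP, dCTP, dGTP and dTTP. Ribonucleotide reductase, built from the large subunit RRM1 and the small subunit RRM2, makes deoxynucleoside diphosphates from ribonucleoside diphosphates. The thymidylate branch runs through DCTD, which deaminates dCMP to dUMP, DUT, which hydrolyses dUTP to dUMP, TYMS, which methylates dUMP to dTMP, and DTYMK, which phosphorylates dTMP. TK1 and DCK phosphorylate deoxynucleosides salvaged from outside the pathway, and SAMHD1 breaks dNTPs down again. CDK4 phosphorylates the retinoblastoma protein, which releases E2F transcription factors, and E2F factors drive many S phase genes. RRM2, TK1 and TYMS are textbook examples of transcripts that rise as cells enter S phase.

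Because E2F factors, NF-Y (which binds CCAAT boxes) and the complex that binds the cell cycle homology region (CHR) are the usual regulators of such genes, promoter windows were searched for their words on both strands. Windows came from RefSeq on GRCh38.p14 and ran from 250 bases before to 50 bases after a start site, 300 bases in all, and a gene counted if any of its windows matched. An E2F word (TTTCCCGC, TTTCGCGC, TTTGCCGC or TTTGGCGC) was present for TYMS, DUT and DCK, that is, 3 of 9 members, against 3.99% of 27305 genes with a window. A CCAAT word was present for RRM1, RRM2, TK1, DTYMK and SAMHD1, 5 of 9, against 39.7% of genes, and a CHR word (TTTGAA or TTCGAA) for RRM1, DUT and DTYMK, 3 of 9, against 19.5%. DCTD had none of the 3. The stretches below, each of 30 bases and read in the direction of the gene, show a selection of these words in capitals, from 6 members that carry them, so that the counts above can be read against actual letters. They are not in every case the words nearest the start site.
TYMS, E2F word, chr18:657603-657632, plus strand: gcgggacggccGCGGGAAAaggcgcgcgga
DUT, E2F words, chr15:48332151-48332180, plus strand: gctgGCGGGAAAtttcggtTTTGGCGCgct
RRM2, CCAAT, chr2:10122603-10122632, plus strand: gggcaaggcgcagCCAATgggaagggtcgg
RRM2, CCAAT, chr2:10122660-10122689, plus strand: cggggcaccaaagCCAATgggaagggccgg
TK1, CCAAT on the opposite strand, chr17:78187113-78187142, minus strand: cggccgggcgctgATTGGccccatggcggc
RRM1, CCAAT, chr11:4094644-4094673, plus strand: ggcatgtccatatCCAATggggcccatggg
DTYMK, CCAAT and CHR, chr2:241686886-241686915, minus strand: ggccccggCCAATcccTTCGAAtttggccg

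The RRM2 window at its canonical start site held 3 CCAAT words, at -123, -93 and -66 bases from the start site, and the outer pair is shown. TK1 held 2, at -77 (shown) and -46. DTYMK held CCAAT words at -92 (shown) and -24, and the E2F word of DCK, not shown, lay at 21, after the start site. The word in the TYMS window lay at -39, and the DUT words at -42 and -27 of its start site that is farthest downstream. No window of RRM1, RRM2 or TK1 held any of the 4 E2F words. A match is a description of these letters and not a bound site.

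Library totals lay between 20675156 and 22692555 normalised counts. All 9 luminal prostate markers checked were abundant in every library, with KLK3 at 19802 to 55194 and the lowest value of any of them, KLK2, at 2239. Of 11 markers of other cell types, KRT5, TP63, DCN, PTPRC, CD3E, PECAM1 and CHGA did not exceed 7.09 in any library. COL1A1 stood at 194 to 644, and KRT14, COL3A1 and SYP at no more than 88.6. The lowest value of any member in any library was 131, for RRM2, so no member was near the minimum of 10 used as a filter, and all 9 were tested. RNA was measured in bulk, so fewer cells in a given phase of the cycle and less RNA per cell cannot be told apart. Gene models of several members overlap others, and the strand setting of the read counting is not given in the sources used here. TYMS shares 967 exonic bases (39.9% of its exons) with ENOSF1 and 193 with TYMSOS, both on the opposite strand. DUT shares 533 with DUT-AS1, SAMHD1 shares 1068 with TLDC2, and DCK shares 199 with MOB1B on the same strand, so reads in these parts could be counted for either gene.

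In untreated proliferation, that is, in vehicle at 24 h, the members spanned a wide range of levels per kilobase of their canonical transcript (mean ± SD, n = 3). The salvage kinase TK1 stood highest at 1616 ± 44.4 normalised counts per kilobase. TYMS at 1191 ± 25.3 and RRM2 at 1191 ± 63.0 were level with each other, and RRM1 followed at 1008 ± 22.1. A middle set held DCTD at 659 ± 4.57, DTYMK at 584 ± 45.7 and DUT at 422 ± 39.9. DCK at 280 ± 28.0 and SAMHD1 at 255 ± 18.4 were lowest, and differed by about their SDs. The order at 72 h was the same, from TK1 at 1705 ± 20.0 to SAMHD1 at 275 ± 43.5. None of the 9 was called between 24 h and 72 h in vehicle (log2 difference -0.05 to 0.15, adjusted p = 0.398 to 0.978, limma with Benjamini-Hochberg adjustment). Of 16850 tested genes, 7.5% were called in that contrast.

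Each treatment was set against vehicle at the same time by limma on log2(normalised count + 1), with Benjamini-Hochberg adjustment over all 16137 genes tested at 24 h and 16341 at 72 h, and a gene was called at an adjusted p of at most 0.05. Values for the 5 treatments are given throughout in the order AU2-94 1 µM, AU2-94 2 µM, atirmociclib 1 µM, atirmociclib 2 µM and ribociclib 2 µM. The 5 comparisons of a time point share its 3 vehicle libraries. At 24 h, 7, 8, 8, 8 and 7 of the 9 members fell, against 13.5, 14.9, 15.4, 16.2 and 15.2% of all genes tested. Of these, 3, 3, 4, 4 and 4 fell at least 2-fold (a log2 fold change of -1 or below), against 2.4, 2.94, 4.22, 4.82 and 3.66% of all genes. DCTD was the only member called higher, in 4 of the 5 treatments, and 14.3, 16.0, 16.6, 18.6 and 16.8% of all genes were called higher.

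At 72 h, 7, 7, 8, 8 and 7 members fell, against 17.0, 15.3, 19.8, 19.6 and 15.4% of all genes, and 1, 1, 3, 4 and 2 fell at least 2-fold, against 0.869, 0.838, 2.67, 3.67 and 1.54%. No member was called higher. The median log2 fold change of the 9 members was -0.73, -0.86, -0.78, -0.80 and -0.78 at 24 h and -0.56, -0.50, -0.94, -0.89 and -0.74 at 72 h, while that of all genes tested stayed within 0.01 of 0. In 7 members, RRM1, RRM2, TYMS, DUT, DTYMK, TK1 and DCK, all 15 treated libraries of each time point lay below all 3 vehicle libraries, as was so for 10.7% of genes tested at 24 h, 11.3% at 72 h and 5.14% of the 15849 tested at both times.

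**Figure D1:**
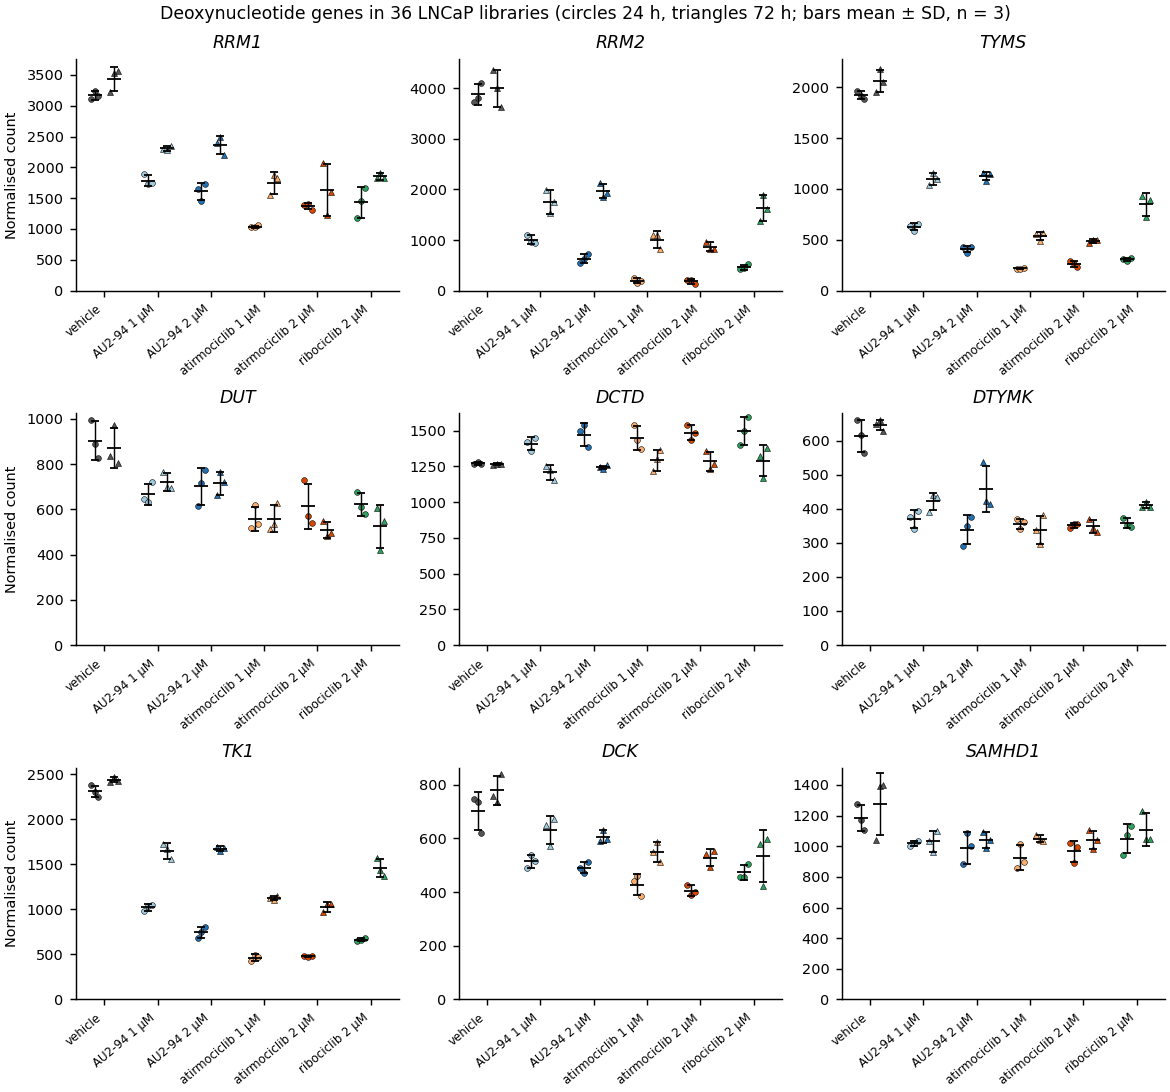
Normalised counts (vertical axes, from 0) of the 9 genes in each of the 36 libraries, by treatment. Circles are 24 h and triangles 72 h, with bars for mean ± SD of 3 libraries. RRM2, TYMS and TK1 drop furthest below vehicle at 24 h and stand higher at 72 h, while DCTD and SAMHD1 stay close to their vehicle levels.

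Ribonucleotide reductase showed unequal changes of its subunits. The small subunit RRM2 was the most reduced of the 9 members at 24 h, down to 4.70% of the vehicle mean with atirmociclib 2 µM. RRM2 counts in vehicle at 24 h were 3728, 3797 and 4113, against 1109, 961 and 951 with AU2-94 at 1 µM and 540, 631 and 724 at 2 µM. With atirmociclib RRM2 was at 249, 156 and 194 at 1 µM and 204, 211 and 131 at 2 µM, and with ribociclib at 427, 446 and 523. The 5 treatments separated from vehicle and, apart from the 2 atirmociclib doses, from each other. RRM2 had log2 fold changes of -1.95, -2.63, -4.30, -4.43 and -3.06 (SE 0.170, adjusted p = 1.08e-07, 1.24e-09, 6.75e-13, 4.46e-13 and 1.43e-10). From the lowest fold change upwards, RRM2 ranked 70, 36, 13, 15 and 26 among the 16137 genes tested.

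RRM2 was higher again in every treated group at 72 h, without reaching vehicle. RRM2 counts in vehicle at 72 h were 4362, 3998 and 3624, against 1983, 1525 and 1751 with AU2-94 at 1 µM and 2126, 1857 and 1932 at 2 µM. With atirmociclib RRM2 was at 1098, 1109 and 820 at 1 µM and 967, 819 and 822 at 2 µM, and with ribociclib at 1386, 1893 and 1620. Vehicle means were 3879 ± 205 at 24 h and 3995 ± 369 at 72 h, so the treated groups stood at 43.9, 49.4, 25.3, 21.8 and 40.9% of vehicle. AU2-94 and ribociclib libraries overlapped, and every atirmociclib library lay below them. RRM2 had log2 fold changes of -1.19, -1.02, -1.99, -2.20 and -1.30 (SE 0.126), with adjusted p between 9.53e-11 and 7.77e-06. The fold change for AU2-94 2 µM was just past 2-fold, and was smaller than 2-fold without AU2-94 2 µM replicate 2 or without vehicle replicate 1, which left 0 members past 2-fold in place of 1.

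The large subunit RRM1 fell in every treatment too, but less. RRM1 counts in vehicle at 24 h were 3104, 3241 and 3154, against 1885, 1732 and 1741 with AU2-94 at 1 µM and 1656, 1452 and 1725 at 2 µM. With atirmociclib RRM1 was at 1035, 1025 and 1057 at 1 µM and 1382, 1405 and 1311 at 2 µM, and with ribociclib at 1173, 1450 and 1667. No treated library reached the lowest vehicle library, and the 3 atirmociclib 1 µM libraries lay below all other groups. RRM1 had log2 fold changes of -0.83, -0.98, -1.61, -1.21 and -1.16 (SE 0.0913, adjusted p = 2.11e-06, 1.81e-07, 1.2e-10, 6.52e-09 and 1.58e-08).

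RRM1 counts in vehicle at 72 h were 3214, 3527 and 3561, against 2303, 2277 and 2352 with AU2-94 at 1 µM and 2398, 2494 and 2200 at 2 µM. With atirmociclib RRM1 was at 1545, 1881 and 1828 at 1 µM and 2071, 1228 and 1596 at 2 µM, and with ribociclib at 1828, 1915 and 1819. The replicates of atirmociclib 2 µM were far apart at this time, with an SD of 423 around a mean of 1632, yet the highest of them remained below vehicle. RRM1 had log2 fold changes of -0.57, -0.54, -0.98, -1.10 and -0.89 at 72 h (SE 0.122, adjusted p = 0.00144, 0.00258, 3.74e-06, 7.09e-07 and 1.85e-05). Without atirmociclib 1 µM replicate 3, 5 members in place of 3 passed 2-fold in that treatment at 72 h.

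The ratio of RRM2 to RRM1, taken per kilobase in each library, was 1.16, 1.13 and 1.26 in the vehicle libraries at 24 h. It was 0.232, 0.147 and 0.177 with atirmociclib 1 µM and 0.142, 0.145 and 0.0966 with atirmociclib 2 µM. The means were 0.543 ± 0.0214 with AU2-94 1 µM, 0.379 ± 0.0568 with AU2-94 2 µM and 0.317 ± 0.0299 with ribociclib. No treated library overlapped vehicle at 24 h. At 72 h the vehicle libraries were at 1.31, 1.09 and 0.981, and the treated means were 0.732 ± 0.0930, 0.807 ± 0.0767, 0.562 ± 0.126, 0.530 ± 0.101 and 0.848 ± 0.111. The highest treated library, a ribociclib replicate at 0.953, came close to the lowest vehicle library at 0.981.

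RRM2B, the p53-inducible small subunit that can replace RRM2 in the enzyme, is not a member but was fixed for comparison, and it went the other way at 24 h. Its vehicle libraries held 847, 908 and 801 normalised counts, and the AU2-94 libraries 1219, 1479 and 1433 at 1 µM and 1526, 1372 and 1483 at 2 µM. The atirmociclib libraries held 1464, 1354 and 1139 and 1207, 1383 and 1262, and the ribociclib libraries 1290, 1473 and 1214. All 15 treated libraries exceeded vehicle, as in 11.0% of genes tested at 24 h. RRM2B rose in all 5 treatments (log2 fold change 0.59 to 0.78, adjusted p at most 0.000106), while 14.3 to 18.6% of all genes were called higher. At 72 h it was not called in any (-0.31 to 0.10, adjusted p at least 0.144), with vehicle at 1198, 887 and 1155. The change of its effect between the times, -0.995, -0.87, -0.53, -0.78 and -0.70 on the log2 scale, was called in every treatment except atirmociclib 1 µM (adjusted p = 0.0503 there, and 0.00034 to 0.0096 in the others).

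**Figure D2:**
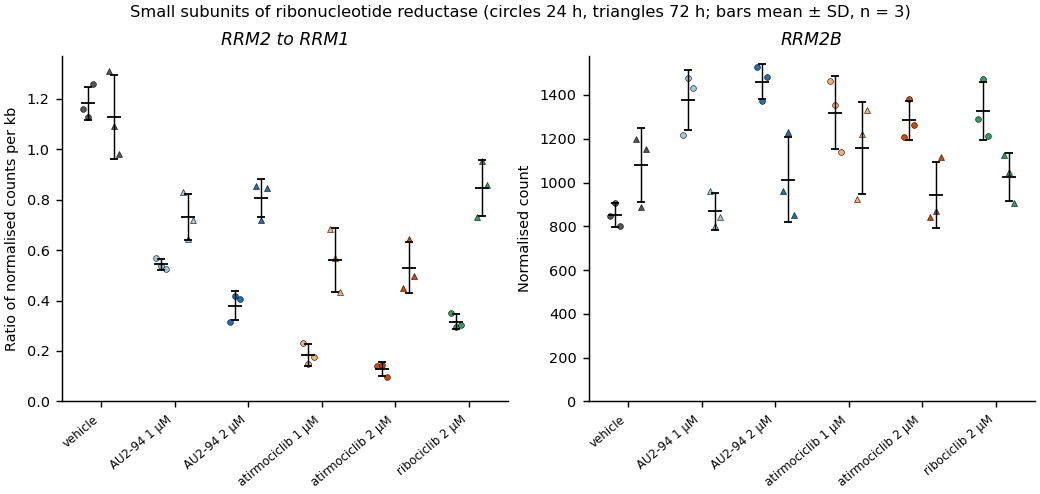
Left, the ratio of RRM2 to RRM1 in normalised counts per kilobase of transcript. Right, normalised counts of RRM2B. Both vertical axes start at 0, circles are 24 h and triangles 72 h libraries, and bars give mean ± SD of 3 libraries. The ratio was 1.18 in vehicle and 0.128 with atirmociclib 2 µM at 24 h, when all treated RRM2B libraries exceeded vehicle.

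In the thymidylate branch, TYMS, the target of fluoropyrimidine drugs, showed the second largest falls after RRM2. TYMS counts in vehicle at 24 h were 1965, 1916 and 1884, against 637, 589 and 656 with AU2-94 at 1 µM and 426, 371 and 432 at 2 µM. With atirmociclib TYMS was at 213, 215 and 226 at 1 µM and 291, 258 and 236 at 2 µM, and with ribociclib at 309, 287 and 322. The groups fell into the order vehicle, AU2-94 1 µM, AU2-94 2 µM, ribociclib, atirmociclib 2 µM and atirmociclib 1 µM, in which only ribociclib and atirmociclib 2 µM overlapped. TYMS had log2 fold changes of -1.61, -2.23, -3.13, -2.88 and -2.65 (SE 0.0874, adjusted p = 2.71e-10, 1.86e-12, 7.55e-15, 2.2e-14 and 1.99e-13). Atirmociclib 1 µM left 11.4% of the vehicle mean and AU2-94 1 µM left 32.6%.

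TYMS counts in vehicle at 72 h were 1955, 2178 and 2052, against 1037, 1155 and 1099 with AU2-94 at 1 µM and 1153, 1079 and 1149 at 2 µM. With atirmociclib TYMS was at 554, 492 and 570 at 1 µM and 468, 494 and 501 at 2 µM, and with ribociclib at 930, 720 and 893. The 2 AU2-94 doses overlapped each other at 72 h, all ribociclib libraries lay below them, and all atirmociclib libraries below those. TYMS had log2 fold changes of -0.91, -0.87, -1.94, -2.08 and -1.29 (SE 0.0862, adjusted p = 2.7e-07, 5.25e-07, 3.62e-12, 8.93e-13 and 2.03e-09), which left 53.2, 54.7, 26.1, 23.7 and 41.1% of the vehicle mean. Counts of the genes overlapping TYMS on the opposite strand differed from its own. ENOSF1, at 1123 to 1838 normalised counts in all libraries, had log2 fold changes of -0.37 to -0.21 at 24 h (4 of 5 called) and -0.07 to 0.26 at 72 h (2 of 5). TYMSOS, at 38.8 to 202, had -1.23 to -0.54 and -1.67 to -0.32, with 4 of 5 called at each time.

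DTYMK, which carries dTMP on to dTDP, fell by nearly the same amount in every treatment at 24 h. DTYMK counts in vehicle at 24 h were 660, 617 and 564, against 376, 342 and 394 with AU2-94 at 1 µM and 291, 350 and 375 at 2 µM. With atirmociclib DTYMK was at 369, 340 and 360 at 1 µM and 344, 354 and 355 at 2 µM, and with ribociclib at 374, 354 and 345. The 5 treated groups overlapped each other and none overlapped vehicle. DTYMK had log2 fold changes between -0.86 and -0.73 (SE 0.0950, adjusted p at most 1.44e-05). DTYMK counts in vehicle at 72 h were 650, 660 and 630, against 392, 440 and 434 with AU2-94 at 1 µM and 536, 424 and 416 at 2 µM. With atirmociclib DTYMK was at 338, 298 and 381 at 1 µM and 371, 344 and 333 at 2 µM, and with ribociclib at 405, 421 and 407. AU2-94 2 µM replicate 1 stood above the other 14 treated libraries at 72 h and still below vehicle. DTYMK had log2 fold changes of -0.62, -0.50, -0.94, -0.89 and -0.65 at 72 h (SE 0.102, adjusted p = 0.00014, 0.00106, 6.6e-07, 1.16e-06 and 7.56e-05).

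DUT, the dUTPase that keeps uracil out of DNA, changed by less than 2-fold throughout. DUT counts in vehicle at 24 h were 995, 890 and 826, against 644, 634 and 721 with AU2-94 at 1 µM and 614, 718 and 773 at 2 µM. With atirmociclib DUT was at 519, 619 and 537 at 1 µM and 728, 569 and 542 at 2 µM, and with ribociclib at 675, 612 and 578. Treated libraries spanned 519 to 773, all below the lowest vehicle library. DUT had log2 fold changes of -0.44, -0.37, -0.69, -0.57 and -0.54 (SE 0.115, adjusted p = 0.00799, 0.0209, 0.000128, 0.0008 and 0.00139). The call for AU2-94 2 µM was lost without its replicate 1 (-0.27, adjusted p = 0.109) or vehicle replicate 1 (-0.30). DUT counts in vehicle at 72 h were 835, 973 and 806, against 765, 700 and 696 with AU2-94 at 1 µM and 663, 764 and 722 at 2 µM. With atirmociclib DUT was at 514, 535 and 627 at 1 µM and 547, 481 and 497 at 2 µM, and with ribociclib at 605, 420 and 550. Every treated library was again below vehicle, but the AU2-94 comparisons were not called. DUT had log2 fold changes of -0.27, -0.28, -0.64, -0.77 and -0.74 (SE 0.117, adjusted p = 0.0842, 0.0793, 0.000234, 3.03e-05 and 7.85e-05). Both AU2-94 values were called when only the 2 groups compared were fitted (adjusted p = 0.0393 and 0.0450). DUT-AS1, the overlapping antisense gene at 9.64 to 68.5 normalised counts, was called in no comparison with vehicle.

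DCTD, which feeds dUMP to TYMS from dCMP, was the member that did not fall. DCTD counts in vehicle at 24 h were 1265, 1281 and 1265, against 1422, 1357 and 1450 with AU2-94 at 1 µM and 1495, 1539 and 1382 at 2 µM. With atirmociclib DCTD was at 1542, 1431 and 1374 at 1 µM and 1540, 1435 and 1486 at 2 µM, and with ribociclib at 1398, 1498 and 1598. The vehicle libraries were close together, and all 15 treated libraries exceeded them, as in 11.0% of genes tested at 24 h. DCTD had log2 fold changes of 0.15, 0.21, 0.19, 0.23 and 0.24 (SE 0.0610, adjusted p = 0.0783, 0.0132, 0.0243, 0.00739 and 0.00595), so DCTD rose in 4 treatments and the value for AU2-94 1 µM was not called. Scaling the libraries to equal totals removed the calls for atirmociclib at 1 µM (0.13, adjusted p = 0.109) and 2 µM (0.15, adjusted p = 0.0600). The call for AU2-94 2 µM was lost without its replicate 2 (0.18, adjusted p = 0.0621), and that for atirmociclib 1 µM without its replicate 1 (0.14) or vehicle replicate 1 or 3 (0.19 each). DCTD counts in vehicle at 72 h were 1263, 1267 and 1270, against 1250, 1221 and 1152 with AU2-94 at 1 µM and 1242, 1233 and 1256 at 2 µM. With atirmociclib DCTD was at 1216, 1300 and 1363 at 1 µM and 1361, 1231 and 1266 at 2 µM, and with ribociclib at 1321, 1169 and 1377. No value at 72 h was called (log2 fold change -0.07 to 0.03, SE 0.0648, adjusted p = 0.447 to 0.834), although all 6 AU2-94 libraries lay below vehicle.

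Of the salvage kinases, TK1, which phosphorylates thymidine and whose activity in serum is used as a proliferation marker, fell most. TK1 counts in vehicle at 24 h were 2378, 2309 and 2251, against 983, 1038 and 1049 with AU2-94 at 1 µM and 677, 755 and 803 at 2 µM. With atirmociclib TK1 was at 427, 494 and 475 at 1 µM and 484, 473 and 483 at 2 µM, and with ribociclib at 651, 659 and 679. Replicates lay close together, and of neighbouring groups AU2-94 2 µM overlapped ribociclib, and the 2 atirmociclib doses overlapped each other. TK1 had log2 fold changes of -1.18, -1.64, -2.31, -2.27 and -1.80 (SE 0.0693, adjusted p = 8.17e-10, 4.18e-12, 1.63e-14, 2.2e-14 and 1.09e-12). TK1 counts in vehicle at 72 h were 2416, 2471 and 2431, against 1729, 1672 and 1557 with AU2-94 at 1 µM and 1698, 1644 and 1680 at 2 µM. With atirmociclib TK1 was at 1132, 1105 and 1153 at 1 µM and 967, 1065 and 1060 at 2 µM, and with ribociclib at 1574, 1439 and 1372. The treated groups had moved up to 67.8, 68.6, 46.3, 42.3 and 59.9% of the vehicle mean, from 44.3, 32.2, 20.1, 20.7 and 28.7% at 24 h. TK1 had log2 fold changes of -0.56, -0.54, -1.11, -1.24 and -0.74 at 72 h (SE 0.0590, adjusted p = 9.15e-07, 1.61e-06, 4.13e-11, 6.02e-12 and 1.92e-08).

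DCK, the kinase of deoxycytidine that also activates gemcitabine and cytarabine, fell by less. DCK counts in vehicle at 24 h were 747, 736 and 620, against 490, 537 and 516 with AU2-94 at 1 µM and 490, 470 and 512 at 2 µM. With atirmociclib DCK was at 440, 459 and 386 at 1 µM and 428, 388 and 401 at 2 µM, and with ribociclib at 457, 458 and 506. Every treated library was below vehicle, and neighbouring treated groups overlapped. DCK had log2 fold changes of -0.44, -0.51, -0.71, -0.78 and -0.56 (SE 0.0884, adjusted p at most 0.000983). DCK counts in vehicle at 72 h were 759, 737 and 840, against 652, 573 and 671 with AU2-94 at 1 µM and 590, 633 and 598 at 2 µM. With atirmociclib DCK was at 550, 586 and 513 at 1 µM and 542, 492 and 553 at 2 µM, and with ribociclib at 579, 424 and 600. Ribociclib replicate 2, at 424, was the lowest library. DCK had log2 fold changes of -0.30, -0.36, -0.50, -0.56 and -0.56 at 72 h (SE 0.109, adjusted p = 0.0409, 0.0189, 0.00121, 0.000458 and 0.000681). The call for AU2-94 1 µM at 72 h was near the threshold: it was lost on leaving out any of 5 of the 6 libraries compared (-0.34 to -0.23, adjusted p = 0.0505 to 0.166), that is, AU2-94 replicate 1 or 2 or any vehicle replicate. It was also lost with no filter on low values, equal totals, quantile normalisation or no trend (-0.30 to -0.25, adjusted p = 0.0597 to 0.0787). That for AU2-94 2 µM was lost without its replicate 1 or 3 or vehicle replicate 3 (adjusted p = 0.0531 to 0.0810). MOB1B, which shares exonic bases with DCK, had log2 fold changes of 0.15 to 0.23 at 24 h (0 of 5 called) and 0.07 to 0.35 at 72 h (2 of 5).

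SAMHD1, the dNTP triphosphohydrolase that is best known as a block to retroviral replication, stood lowest of the 9 per kilobase in vehicle and changed little. SAMHD1 counts in vehicle at 24 h were 1276, 1170 and 1106, against 998, 1024 and 1033 with AU2-94 at 1 µM and 882, 1089 and 998 at 2 µM. With atirmociclib SAMHD1 was at 860, 1015 and 898 at 1 µM and 1018, 890 and 992 at 2 µM, and with ribociclib at 945, 1070 and 1131. Ribociclib overlapped vehicle, and the other 4 treatments lay below it. SAMHD1 had log2 fold changes of -0.21, -0.26, -0.36, -0.29 and -0.18 (SE 0.0887, adjusted p = 0.0817, 0.0321, 0.00449, 0.0156 and 0.144), of which those for AU2-94 2 µM and both atirmociclib doses were called. SAMHD1 counts in vehicle at 72 h were 1044, 1392 and 1396, against 1034, 965 and 1101 with AU2-94 at 1 µM and 1094, 986 and 1040 at 2 µM. With atirmociclib SAMHD1 was at 1075, 1039 and 1033 at 1 µM and 1104, 984 and 1039 at 2 µM, and with ribociclib at 1232, 1045 and 1049. At 72 h vehicle replicate 1 was well below the other 2 and all 5 treatments overlapped it. SAMHD1 had log2 fold changes of -0.29, -0.28, -0.27, -0.28 and -0.20 (SE 0.0968, adjusted p = 0.0253, 0.0335, 0.0325, 0.0265 and 0.139), and all but ribociclib were called. These calls were fragile. Each of the 4 was lost without vehicle replicate 2 or 3 (-0.23 to -0.20, adjusted p = 0.123 to 0.153), and the ribociclib value was called without vehicle replicate 1 (-0.33). Leaving out single libraries of the treated groups also removed calls: AU2-94 1 µM replicate 1 or 2, AU2-94 2 µM replicate 2 or 3, any replicate of atirmociclib 1 µM, and atirmociclib 2 µM replicate 2 or 3. All 4 calls were lost when only the 2 groups compared were fitted (adjusted p = 0.0659 to 0.0784), and all but that for atirmociclib 2 µM under quantile normalisation (adjusted p = 0.0587 to 0.0668). Those for AU2-94 2 µM and atirmociclib 1 µM were lost with no filter or no trend (adjusted p = 0.0527 to 0.0580), and that for AU2-94 2 µM with equal totals (adjusted p = 0.0565). At 24 h the AU2-94 2 µM call was lost without its replicate 1 or 3 or vehicle replicate 1 or 2 (adjusted p = 0.0612 to 0.161), and with no filter, quantile normalisation, no trend or only the 2 groups fitted (adjusted p = 0.0506 to 0.0678). The call of atirmociclib 2 µM was lost without its replicate 2 or vehicle replicate 1 (adjusted p = 0.0790 and 0.0793). Equal totals added calls for AU2-94 1 µM (-0.25) and ribociclib (-0.24) at 24 h, and fitting only the 2 groups also added that for AU2-94 1 µM (adjusted p = 0.0478).

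**Figure D3:**
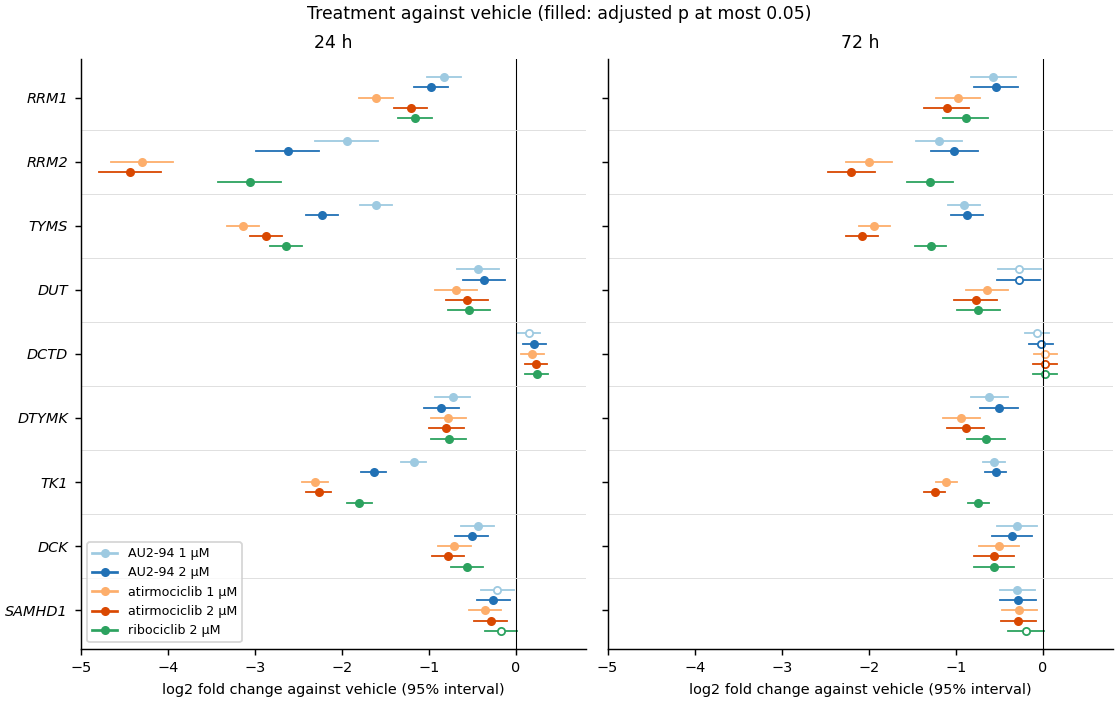
Log2 fold change against vehicle (horizontal axes) of each gene in the 5 treatments at 24 h (left) and 72 h (right), with 95% intervals from limma. Filled points had an adjusted p of at most 0.05. RRM2 reaches -4.43 with atirmociclib 2 µM at 24 h, and DCTD lies to the right of 0 at 24 h.

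Whether the effects changed between the times was tested directly, as the log2 fold change at 72 h minus that at 24 h, in 1 fit of all 36 libraries. TK1, TYMS and RRM2 moved back towards vehicle in all 5 treatments, and RRM1 did so with atirmociclib 1 µM. The number of members called was 3, 3, 4, 3 and 3, all upwards, against 21.6, 18.5, 21.9, 21.6 and 20.2% of 16850 genes called in either direction. For RRM2 the changes were 0.75, 1.61, 2.30, 2.23 and 1.76 (SE 0.225, adjusted p = 0.0147, 3.53e-06, 5.5e-09, 9.12e-09 and 7.44e-07). For TYMS they were 0.71, 1.36, 1.20, 0.80 and 1.36 (SE 0.120, adjusted p = 6.68e-05, 1e-09, 1.05e-08, 9.8e-06 and 1.33e-09), and for TK1 0.61, 1.09, 1.20, 1.02 and 1.06 (SE 0.0866, adjusted p = 4.63e-06, 1.43e-10, 1.36e-11, 3.14e-10 and 3.12e-10). The RRM1 change with atirmociclib 1 µM was 0.63 (SE 0.161, adjusted p = 0.00446). These 16 changes passed the threshold under all 20 alternatives tried. The 5 contrasts share the vehicle libraries of both times, in which none of the 9 members was called between times.

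The other members had smaller values, none called. The changes were -0.21 to 0.17 for DUT, -0.16 to 0.36 for DTYMK, 0.00 to 0.23 for DCK and -0.08 to 0.09 for SAMHD1. RRM1 in the other 4 treatments had 0.11 to 0.44. For AU2-94 2 µM, 5 members in place of 3 were called without its 24 h replicate 3 or its 72 h replicate 3, and also with equal totals. DCTD had changes of -0.24 to -0.16 with adjusted p of 0.0530 to 0.201, so its rise at 24 h and the values around 0 at 72 h were not shown to differ. DCTD was called lower without AU2-94 2 µM replicate 3 at 24 h, or for ribociclib without its replicate 1 at 24 h or replicate 3 at 72 h. Over the 8 S phase replication genes kept as a reference (PCNA, CDC6 and MCM genes), 1, 5, 6, 7 and 6 were called higher in this contrast, and 2 were called lower with AU2-94 1 µM.

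**Figure D4:**
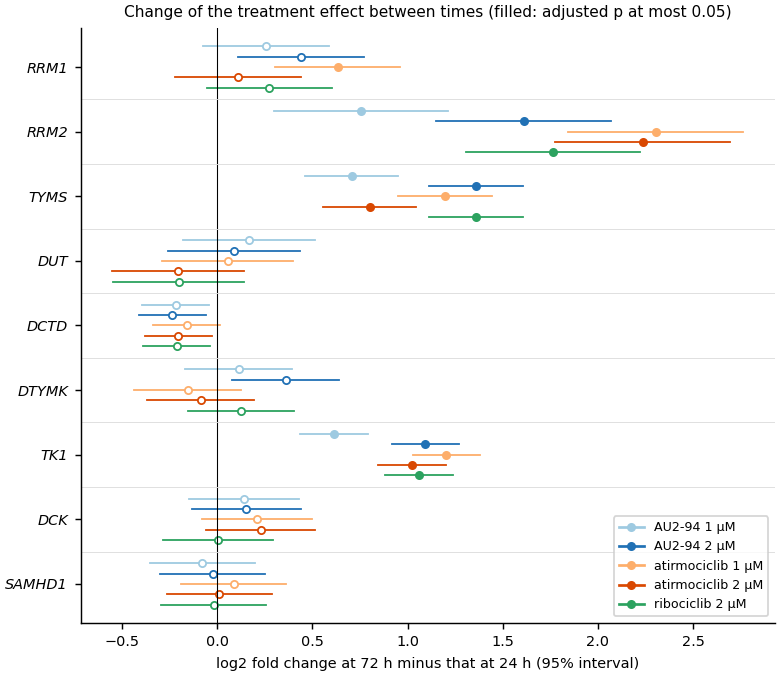
Change of the log2 fold change against vehicle from 24 h to 72 h (horizontal axis) for each gene and treatment, with 95% intervals from limma. Filled points had an adjusted p of at most 0.05. Values right of 0 are effects that became less negative, the highest being 2.30 for RRM2 with atirmociclib 1 µM.

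The agents were compared with each other at matched doses and times in 8 contrasts, each adjusted over all genes and not across contrasts. The shares of genes given beside the counts of members, here and between doses below, are of genes called in either direction. Wherever a member was called between agents, atirmociclib was lower than AU2-94 or ribociclib, or ribociclib was lower than AU2-94. At 24 h and 1 µM, 4 of 9 members were lower with atirmociclib than with AU2-94, against 4.64% of all genes called in either direction. The differences were -2.35 (95% interval -2.71 to -1.99, adjusted p = 3e-08) for RRM2, -1.52 (95% interval -1.70 to -1.33, adjusted p = 1.58e-09) for TYMS, -1.14 (95% interval -1.28 to -0.99, adjusted p = 3.12e-09) for TK1 and -0.78 (95% interval -0.97 to -0.59, adjusted p = 1.64e-05) for RRM1, on the log2 scale. At 2 µM, 3 of 9 were lower, against 9.44% of genes: RRM2 with -1.81 (95% interval -2.17 to -1.45, adjusted p = 2.93e-06), TYMS with -0.65 (95% interval -0.83 to -0.46, adjusted p = 0.000133) and TK1 with -0.63 (95% interval -0.78 to -0.48, adjusted p = 2.07e-05). RRM1 was not called at this dose (-0.23 (95% interval -0.43 to -0.04, adjusted p = 0.119)).

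Ribociclib and AU2-94 at 2 µM had no member called between them at 24 h, in a contrast where 0.0372% of genes were called. The differences nearest to a call were -0.42 (95% interval -0.60 to -0.23, adjusted p = 0.0671) for TYMS, -0.44 (95% interval -0.79 to -0.08, adjusted p = 0.304) for RRM2 and -0.16 (95% interval -0.31 to -0.02, adjusted p = 0.349) for TK1. In the fit of all 36 libraries 1 member was called, and the intervals do not show that the agents acted alike. Atirmociclib 2 µM was lower than ribociclib 2 µM in 2 members, against 4.64% of genes: RRM2 with -1.37 (95% interval -1.73 to -1.01, adjusted p = 9.58e-05) and TK1 with -0.47 (95% interval -0.61 to -0.32, adjusted p = 0.000521). TYMS was not called (-0.23 (95% interval -0.41 to -0.05, adjusted p = 0.161)).

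At 72 h, 4 members were lower with atirmociclib than with AU2-94 at 1 µM, against 8.24% of genes. The differences were -1.03 (95% interval -1.21 to -0.85, adjusted p = 2.81e-07) for TYMS, -0.80 (95% interval -1.07 to -0.54, adjusted p = 0.000355) for RRM2 and -0.55 (95% interval -0.67 to -0.42, adjusted p = 6.31e-06) for TK1. RRM1 with -0.40 (95% interval -0.66 to -0.15, adjusted p = 0.0477), was not called with the replicate number as a block (adjusted p = 0.0684), nor on leaving out any of the 6 libraries of these groups (-0.46 to -0.32, adjusted p = 0.0616 to 0.193). At 2 µM, 6 members were lower with atirmociclib, against 19.8% of genes called in either direction. They were TYMS with -1.21 (95% interval -1.39 to -1.03, adjusted p = 1.15e-08), RRM2 with -1.18 (95% interval -1.45 to -0.92, adjusted p = 1.82e-06), TK1 with -0.70 (95% interval -0.82 to -0.58, adjusted p = 9.03e-08), RRM1 with -0.57 (95% interval -0.82 to -0.31, adjusted p = 0.0027), DUT with -0.49 (95% interval -0.74 to -0.25, adjusted p = 0.00519) and DTYMK with -0.39 (95% interval -0.60 to -0.17, adjusted p = 0.0113). The DTYMK call was lost without AU2-94 2 µM replicate 1, the high library named above (-0.27, adjusted p = 0.0737).

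Ribociclib 2 µM was lower than AU2-94 2 µM at 72 h in 2 members, against 3.34% of genes: TYMS with -0.42 (95% interval -0.60 to -0.24, adjusted p = 0.0119) and DUT with -0.46 (95% interval -0.71 to -0.22, adjusted p = 0.0359). With the replicate number as a block TYMS stayed called (adjusted p = 0.0171) and DUT did not (adjusted p = 0.0502). TYMS was lost without AU2-94 replicate 3 (adjusted p = 0.0542) or ribociclib replicate 2 (-0.31, adjusted p = 0.0583). DUT was lost without AU2-94 replicate 2 (adjusted p = 0.141) or 3 (adjusted p = 0.107) or ribociclib replicate 2 (-0.31, adjusted p = 0.185). Atirmociclib 2 µM was lower than ribociclib 2 µM in 3 members, against 9.18% of genes: TYMS with -0.79 (95% interval -0.97 to -0.61, adjusted p = 6.73e-06), RRM2 with -0.90 (95% interval -1.17 to -0.64, adjusted p = 0.000104) and TK1 with -0.50 (95% interval -0.63 to -0.38, adjusted p = 1.49e-05). DUT and DCK, with differences of -0.03 (95% interval -0.28 to 0.21) and 0.00 (-0.23 to 0.23), were not called. SAMHD1, DCTD and DCK were called in none of the 8 contrasts.

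**Figure D5:**
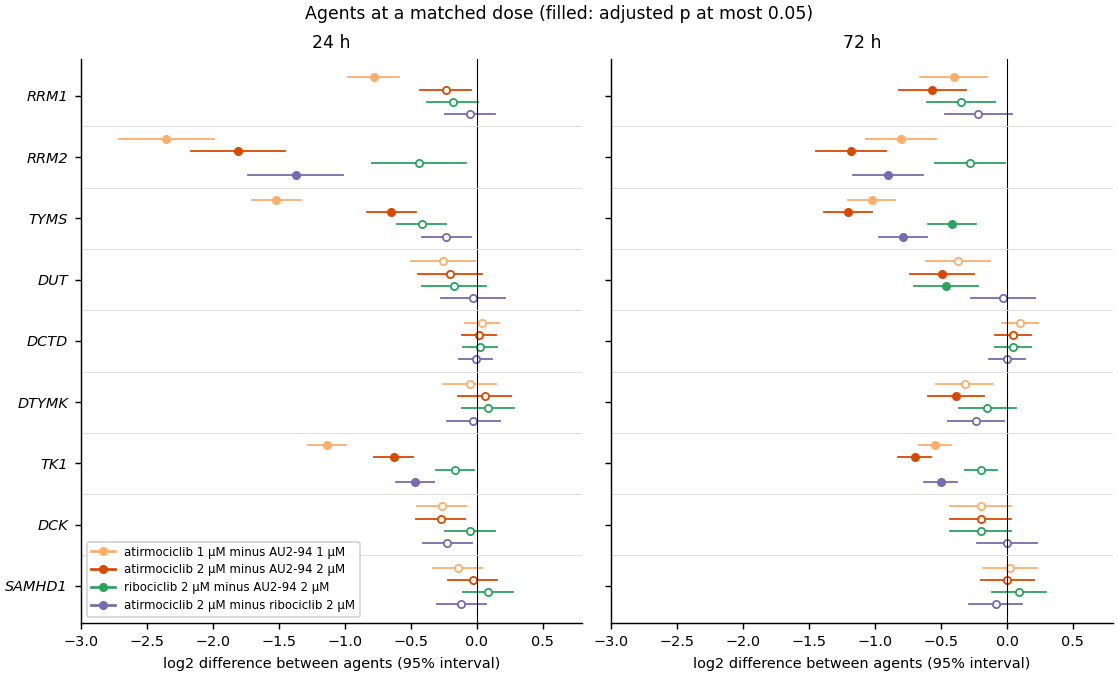
Log2 difference between agents at a matched dose (horizontal axes) at 24 h (left) and 72 h (right), with 95% intervals from limma. Filled points were called at an adjusted p of 0.05, and values left of 0 are lower with the agent named first. RRM2 with atirmociclib 1 µM against AU2-94 1 µM at 24 h lies farthest left, at -2.35.

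Raising AU2-94 from 1 to 2 µM lowered 2 members at 24 h, against 0.409% of genes: TYMS with -0.61 (95% interval -0.80 to -0.43, adjusted p = 0.0023) and TK1 with -0.46 (95% interval -0.61 to -0.31, adjusted p = 0.00385). RRM2 had a wider interval and was not called (-0.68 (95% interval -1.04 to -0.32, adjusted p = 0.119)). At 72 h no member, and 0.0% of genes, was called between the AU2-94 doses (16341 tested by limma), with 0.02 (-0.10 to 0.14) for TK1, 0.04 (-0.14 to 0.22) for TYMS and 0.18 (-0.09 to 0.44) for RRM2. Between the atirmociclib doses no member was called at 24 h, against 0.0124% of genes, or at 72 h, against 2.19%. At 24 h RRM1 was higher at 2 µM than at 1 µM in all libraries, yet not called (0.39 (95% interval 0.20 to 0.59, adjusted p = 0.237)), and RRM2 had -0.14 (-0.49 to 0.22). At 72 h TK1 had -0.13 (95% interval -0.26 to -0.01, adjusted p = 0.272) and RRM2 -0.21 (-0.47 to 0.06).

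How alike the members ran was described by Pearson correlation of log2(normalised count + 1) over the 12 group means, which share libraries of 2 times and are given without a test. RRM2, TK1, TYMS, RRM1 and DCK formed a tight set, with r of 0.991 for TK1 and RRM2, 0.986 for TK1 and TYMS, 0.980 for RRM1 and TYMS and 0.962 for DCK and TK1. DTYMK followed TYMS at 0.876, and SAMHD1 followed RRM1 at 0.873. DUT was looser, at 0.597 with TK1, 0.784 with RRM1 and, its highest, 0.798 with DTYMK. DCTD ran opposite to TK1 at -0.863. Among 12474 genes with a mean of at least 50, those most like TK1 were MKI67 (0.998), MYBL2 (0.997) and KIF4A (0.996). MKI67 encodes the proliferation marker Ki-67. Those most like RRM2 were H2BC14 (0.998), H3C15 (0.998) and RAD51AP1 (0.996). TYMS ran closest to DNMT1 (0.995), HMGB2 (0.993) and SKA1 (0.992), and those close to RRM1 included POLD3 (0.982) and EZH2 (0.980). Those close to DCK included CDCA4 (0.982) and RFC4 (0.976). The closest were, for DTYMK, TUBA1B-AS1 (0.980), RNF26 (0.980) and POGK (0.979), and for SAMHD1 H2AC21 (0.960), WRAP53 (0.957) and MINAR1 (0.953). DUT ran closest to BMAL2 (0.973), JDP2 (0.958) and ULBP1 (0.951), and DCTD to RRAGA (0.983), MPLKIP (0.981) and TMEM230 (0.979).

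The neighbouring pathways were counted from lists of other genes, each read against the shares of all genes called lower and higher given above (at 72 h, 15.4, 14.2, 20.0, 20.9 and 15.5% were called higher). Of 24 other deoxynucleotide genes, 23 were tested, with 4, 4, 5, 6 and 3 lower and 5, 5, 8, 11 and 7 higher at 24 h, and 9, 8, 11, 8 and 7 lower and 1, 1, 2, 3 and 1 higher at 72 h. At 24 h their median log2 fold change ran from 0.03 to 0.24, and the medians at 72 h from -0.24 to -0.12. SLC29A1, the nucleoside transporter ENT1, fell in all 5 treatments at 24 h (-0.92 to -0.63) and 72 h (-0.77 to -0.44). NUDT1, which removes oxidised dNTPs, was called lower in 4 of 5 at 24 h (-0.51 to -0.28) and 5 of 5 at 72 h (-0.54 to -0.35). TK2, the mitochondrial counterpart of TK1, rose in all 5 treatments at 24 h (0.32 to 0.55) and was called in none at 72 h (0.07 to 0.23), although the change between times was not called in any. RRM2B and TK2, fixed for comparison as counterparts of RRM2 and TK1, were both called higher in all 5 treatments at 24 h. Between 14.3 and 18.6% of all genes were called higher there.

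In the folate cycle, which hands TYMS its methyl group, 5, 5, 5, 5 and 5 lower and 0, 0, 2, 4 and 1 higher of 11 genes were called at 24 h, and 8, 8, 7, 7 and 8 lower and 1, 1, 3, 3 and 1 higher at 72 h. The mitochondrial folate genes MTHFD1L (-0.68 to -0.37 at 24 h, -1.07 to -0.90 at 72 h) and MTHFD2 (-0.58 to -0.38 and -0.95 to -0.56) fell in all 10 comparisons. Of 5 genes of de novo pyrimidine synthesis, 3, 2, 3, 3 and 2 lower and 0, 0, 0, 0 and 1 higher were called at 24 h, and 3, 3, 4, 4 and 3 lower and 0, 0, 0, 0 and 0 higher at 72 h. CAD, the multifunctional enzyme that starts that route, was called lower in 5 treatments at 24 h (-0.46 to -0.38) and 4 at 72 h (-0.40 to -0.21). CTPS1, which makes CTP, was called lower in 5 (-0.59 to -0.35) and 4 (-0.48 to -0.14), and UMPS in 3 (-0.19 to -0.12) and 5 (-0.51 to -0.38).

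Of 13 genes of de novo purine synthesis, 4, 5, 2, 2 and 2 lower and 2, 2, 3, 5 and 4 higher were called at 24 h, and 8, 6, 8, 6 and 6 lower and 1, 1, 1, 1 and 0 higher at 72 h. GMPS, which makes GMP, fell in all treatments (-0.62 to -0.47 at 24 h, -0.73 to -0.56 at 72 h), as did PRPS2 (-0.55 to -0.33 and -0.82 to -0.31). IMPDH2, which commits IMP to guanine nucleotides, was called higher in 4 treatments at 24 h (0.08 to 0.27) and lower in all 5 at 72 h (-0.26 to -0.21), and the change between times was called in all 5 (adjusted p at most 1.87e-05). Of the 8 S phase reference genes, 7, 8, 8, 8 and 8 fell at 24 h and 8, 7, 8, 8 and 8 at 72 h, with median log2 fold changes of -0.43, -0.73, -1.39, -1.49 and -0.87 and -0.60, -0.47, -0.83, -0.94 and -0.59. PCNA, the sliding clamp of DNA polymerase, had -2.27 to -1.04 at 24 h and -1.63 to -0.77 at 72 h, MCM4 -2.07 to -0.91 and -1.01 to -0.42, and MCM7 -1.58 to -0.72 and -0.99 to -0.57, all called. Most of these replication genes fell against vehicle, as most members did. From 24 h to 72 h the separate medians of both sets moved the same way with AU2-94 2 µM and ribociclib. Those separate medians moved opposite ways with AU2-94 1 µM and with both atirmociclib doses. The change per gene, fitted in all 36 libraries, had a median above 0 in both sets in all 5 treatments. It was 0.17, 0.36, 0.21, 0.11 and 0.12 for the members and 0.02, 0.34, 0.62, 0.61 and 0.44 for the replication genes. All genes tested had medians of 0.01, 0.01, 0.02, 0.01 and 0.00. The part of the replication genes, or of the share of cells in S phase, in the members' values was not tested.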

How the data were processed

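RNA-seq of LNCaP cells gave 36 libraries in 12 groups of 3 biological replicates, grouped by the agent, dose and time in their labels. Per the submitters' processing notes and the study's methods, reads were aligned to GRCh38 with STAR 2.6.1d and analysed with DESeq2. The read counter, annotation and strand setting are not given in the sources used here. The authors deposited normalised counts, a signal per gene that is not whole reads, so no count test was run on it, and counting error per library is unknown.

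Genes entered a fit when 3 or more of its libraries had 10 or more normalised counts. Tests were made on log2(normalised count + 1), a pseudocount of 1, by limma 3.58.1 in R 4.3.3 (lmFit, eBayes with trend). The 18 libraries of a time were fitted together, and all 36 for changes between times. Fold changes are on the log2(normalised count + 1) scale, which barely affects genes at these levels. P-values were two-sided and adjusted by Benjamini-Hochberg within each contrast. The fits were checked on simulated libraries in which known changes had been planted.

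The 9 genes and the pathway, marker and reference lists were chosen with earlier results of these data known. Of each pathway list the text names up to 3 genes with the largest mean change among those called in all 5 treatments of a time, with RRM2B and TK2 always named. Genes alike in pattern were the 3 with the highest correlation. Some genes that these rules select are not reported here. CDA was not matched in the table. Symbols matched for 29856 of 29872 rows.

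Replicate numbers appear in the labels as a batch, so a fit with the replicate number as a block, which pairs the libraries, was made as an alternative. At 24 h, the deviations from group means correlated across genes with a mean r of 0.0018 for 45 same-numbered pairs (range -0.0898 to 0.112) and -0.00088 for 90 pairs of unlike numbers. The values at 72 h were -0.0022 (range -0.0797 to 0.0502) and 0.0011. The fit without the block was the main one. Alternatives covered the pseudocount, the filter, equal totals, quantile normalisation, the replicate block, the trend, the libraries fitted and leaving out each library. P-values measure the spread between these cultures of 1 cell line.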

Additional observations from a re-analysis of the deposited data

Results flagged for a closer look

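In 16 cases the effect of a treatment on a member differed between 72 h and 24 h by the test of that difference (limma, 1 fit of all 36 libraries, Benjamini-Hochberg adjustment). In each, the log2 fold change against vehicle was less negative at 72 h. For RRM2 the change was 0.75 with AU2-94 1 µM (adjusted p = 0.0147), 1.61 with AU2-94 2 µM, 2.30 with atirmociclib 1 µM, 2.23 with atirmociclib 2 µM and 1.76 with ribociclib 2 µM. For TYMS it was 0.71 with AU2-94 1 µM, 1.36 with AU2-94 2 µM, 1.20 with atirmociclib 1 µM, 0.80 with atirmociclib 2 µM and 1.36 with ribociclib. For TK1 it was 0.61 with AU2-94 1 µM, 1.09 with AU2-94 2 µM, 1.20 with atirmociclib 1 µM, 1.02 with atirmociclib 2 µM and 1.06 with ribociclib. For RRM1 only atirmociclib 1 µM had a called change, of 0.63 (adjusted p = 0.00446). The 5 treatments share the vehicle libraries, and the times also differ in seeding density, so time and density cannot be told apart. With 3 libraries in each group, no test for single outlying libraries was made.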

How the results depend on the processing

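Of 1440 values for single genes against vehicle under the alternatives, 1374 kept their side of the threshold, 59 lost their call and 7 gained one. No value that was called, in the main fit or the alternative, changed sign. Uncalled values could change sign, as DCTD did at 72 h (-0.03 to 0.02 with AU2-94 2 µM). The changes of call were all in SAMHD1, DCTD, DCK with AU2-94 at 72 h and DUT with AU2-94. RRM1, RRM2, TYMS, DTYMK and TK1 kept every call against vehicle. Of 1068 counts of members, 1041 stayed within 1.5 times the main count. Quantile normalisation gave 1 member called higher with AU2-94 1 µM at 24 h in place of 0. Equal totals gave 0 higher in place of 1 for both atirmociclib doses at 24 h, 0 lower by 2-fold with AU2-94 2 µM at 72 h in place of 1 (as did quantile normalisation, 0), and 5 members with a higher effect at 72 h than at 24 h for AU2-94 2 µM in place of 3. The fit of all 36 libraries gave 1 member lower with ribociclib than with AU2-94 at 24 h in place of 0. At 72 h that count was 1 in place of 2 with no filter, with no trend and with the replicate block (paired by replicate number). The block also removed RRM1 between the agents at 1 µM and changed no call against vehicle. With a mean of at least 100 as the filter, 1 member in place of 0 had a lower effect at 72 h for each AU2-94 dose. Leaving out single libraries gave ranges of 0 to 1 higher with AU2-94 2 µM and atirmociclib 1 µM at 24 h, 0 to 1 and 3 to 5 lower by 2-fold with AU2-94 2 µM and atirmociclib 1 µM at 72 h, and 0 to 3 lower with ribociclib than with AU2-94 at 72 h. For the change between times they gave 0 to 1 lower and 3 to 5 higher with AU2-94 2 µM, and 0 to 1 lower with ribociclib. The causes were not tested. Equal totals put the median of all genes at -0.105 (log2) in atirmociclib against AU2-94 at 2 µM and 72 h, and within 0.1 of 0 elsewhere. With depth per library unknown, no limit from counting is given.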
